A study of Homo sapiens with 4 samples.

Results

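The genes described here are the members of the MYC, MAX and MXD transcription factor network: MYC, MYCN, MYCL, MAX, MXD1, MXD3, MXD4, MXI1, MNT and MGA. They were followed in HEK293, an established human embryonic kidney cell line, by choosing every probe set of the array that GEO's platform annotation assigns to 1 gene and whose gene is on this list of 10. That gave 29 of the 54675 probe sets, for 9 of the 10 genes and of 19775 genes with such a probe set. The 3 probe sets of MXD4 each name a second gene as well and were not analysed here. The cells had been kept for 7 days in DMEM with fetal calf serum, at 450 mg/dl glucose (high glucose, 2 arrays) or at 100 mg/dl glucose (low glucose, 2 arrays), and no other treatment is named. Transcript levels at the 2 glucose concentrations were compared. The labels call the arrays biological replicates of each condition but do not describe separate cultures, so p-values measure the spread between these samples only.

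MYC, MYCN and MYCL are basic helix-loop-helix leucine zipper proteins that bind DNA at E-box sequences as partners of MAX, and MYC is known for driving ribosome production, nucleotide synthesis and cell growth. MXD1, MXD3, MXD4, MXI1, MNT and MGA also bind DNA as partners of MAX. The MXD proteins, MXI1 and MNT recruit the SIN3 corepressor, and MGA belongs to a Polycomb complex, so the network is commonly described as a balance between activating and repressing partners that share MAX. A neighbouring arm is built on MLX, a relative of MAX, and includes the glucose-responsive factors MLXIP (MondoA) and MLXIPL (ChREBP).

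Promoter sequences are shown for MAX, MXD1, MXD3 and MNT, the members with repressing roles or the shared partner that were lower together in high glucose in the values given further on. Each spans 250 bases before to 50 after a gene start, from RefSeq on GRCh38.p14, and is written 5′ to 3′ on the gene's strand. A listed start may lie inside the gene, and the MAX window shown appears to hold coding bases before its start. Capitals mark a canonical E-box (CACGTG) or a non-canonical one (CACGCG, or CGCGTG on the other strand). MAX lies at chr14:65102234-65102533 on the minus strand, MXD1 at chr2:69914859-69915158 on the plus strand, MXD3 at chr5:177312703-177313002 on the minus strand and MNT at chr17:2401011-2401310 on the minus strand.
MNT: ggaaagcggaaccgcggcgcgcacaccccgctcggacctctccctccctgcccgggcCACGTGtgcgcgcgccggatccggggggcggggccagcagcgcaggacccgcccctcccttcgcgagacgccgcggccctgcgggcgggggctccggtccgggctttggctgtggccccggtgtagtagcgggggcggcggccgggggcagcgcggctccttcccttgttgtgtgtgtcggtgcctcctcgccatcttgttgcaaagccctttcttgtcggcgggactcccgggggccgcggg
MXD3: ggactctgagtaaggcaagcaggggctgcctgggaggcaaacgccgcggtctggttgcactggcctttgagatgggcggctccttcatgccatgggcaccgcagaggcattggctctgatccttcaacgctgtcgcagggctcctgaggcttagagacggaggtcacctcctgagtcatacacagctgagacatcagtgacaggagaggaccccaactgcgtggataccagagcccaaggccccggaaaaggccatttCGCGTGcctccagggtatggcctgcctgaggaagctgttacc
MXD1: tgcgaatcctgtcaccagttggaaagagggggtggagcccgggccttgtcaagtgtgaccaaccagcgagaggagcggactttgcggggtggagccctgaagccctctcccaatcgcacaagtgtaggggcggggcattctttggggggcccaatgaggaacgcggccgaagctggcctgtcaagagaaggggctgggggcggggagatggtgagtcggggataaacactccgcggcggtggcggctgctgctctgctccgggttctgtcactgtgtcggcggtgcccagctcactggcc
MAX: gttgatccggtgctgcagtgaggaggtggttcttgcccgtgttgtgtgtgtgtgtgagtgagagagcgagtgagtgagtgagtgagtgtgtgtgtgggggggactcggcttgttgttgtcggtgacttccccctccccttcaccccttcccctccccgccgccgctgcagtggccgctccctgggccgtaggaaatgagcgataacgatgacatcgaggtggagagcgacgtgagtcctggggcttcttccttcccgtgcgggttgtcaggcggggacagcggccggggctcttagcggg

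The MNT window held 1 canonical E-box, starting 193 bases before the gene start, and the MXD3 window held 1 non-canonical E-box, 9 bases into the gene. Neither form was in the windows of MXD1 and MAX shown. The search left out chromosome 8, where MYC lies. It covered 14 windows for the other 9 of the 10 members, since MAX has 2 and MXI1 and MGA have 3 each. Of these 14, 2 (MNT and MXD4) held the canonical E-box, which was in 7.26% of the 35116 windows searched. The non-canonical form was in 3 of the 14 (MXD3, MXI1 and MGA) and in 11.4% of all windows. An E2F motif (TTTGGCGC or TTTCCCGC) was in 1 window each of MYCN and MGA and in 2.27% of all windows, and TGATGCAA, the core of the C/EBP-ATF response element, was in 0 of the 14 and 0.866% of all. The motifs were searched on both strands. A match describes the letters in the window and shows no binding.

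Signals were deposited on a linear scale, in signal units scaled to a 2% trimmed mean of 200.02 on each array. Over 12242 genes, Pearson's r was 0.990 between the high glucose arrays, 0.989 between the low glucose arrays and 0.928 to 0.931 across conditions, as correlations across genes. Of 8 genes fixed as markers of HEK293, 6 lay above the filter signal of 32.9, while NEFM and INA did not, and of the fixed blood, liver and endothelium markers with a probe set 0 of 4, 0 of 3 and 1 of 4 (PECAM1) did. The summed signal of 4 fibroblast markers was 516 to 520.5 in high glucose and 321.9 to 348.1 in low glucose, with DCN and LUM below the filter. The 24 probe sets for poly-A spike transcripts were higher in high glucose by a median of 1.94 log2 units (3.84-fold). The largest rise of a tested network probe set was 1.19 log2 units. The part of the spikes and of the fibroblast markers in the results that follow was not tested.

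Across the network, MYC was moderately higher in high glucose, while MAX, MXD1, MXD3 and MNT were lower. MXI1 was nearly equal in both conditions, and MGA gave values in both directions according to the probe set. Of the 29 probe sets, 15 reached the filter signal of 32.9 as a mean over the 4 arrays and were tested with limma over all 27307 such probe sets. In high glucose 2 of the 15 were called higher, 8 were called lower and 5 did not pass (adjusted p under 0.05, the threshold throughout). The MYCN probe set among the 8 had a high glucose mean of 31.3, under the filter signal. It was tested because of its low glucose level, which favours a lower call. Over all probe sets tested, 50.4% were called, 23.1% higher and 27.2% lower. The arrays of the groups did not overlap for 11 of the 15, against 76.8% of all probe sets tested. Median centring moved the median log2 fold change of all probe sets tested to 0.11, against -0.06 as deposited, and the calls over all probe sets were then 63.0% higher rather than 45.9%, and 2 network probe sets were called higher and 5 lower.

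**Figure D1:**
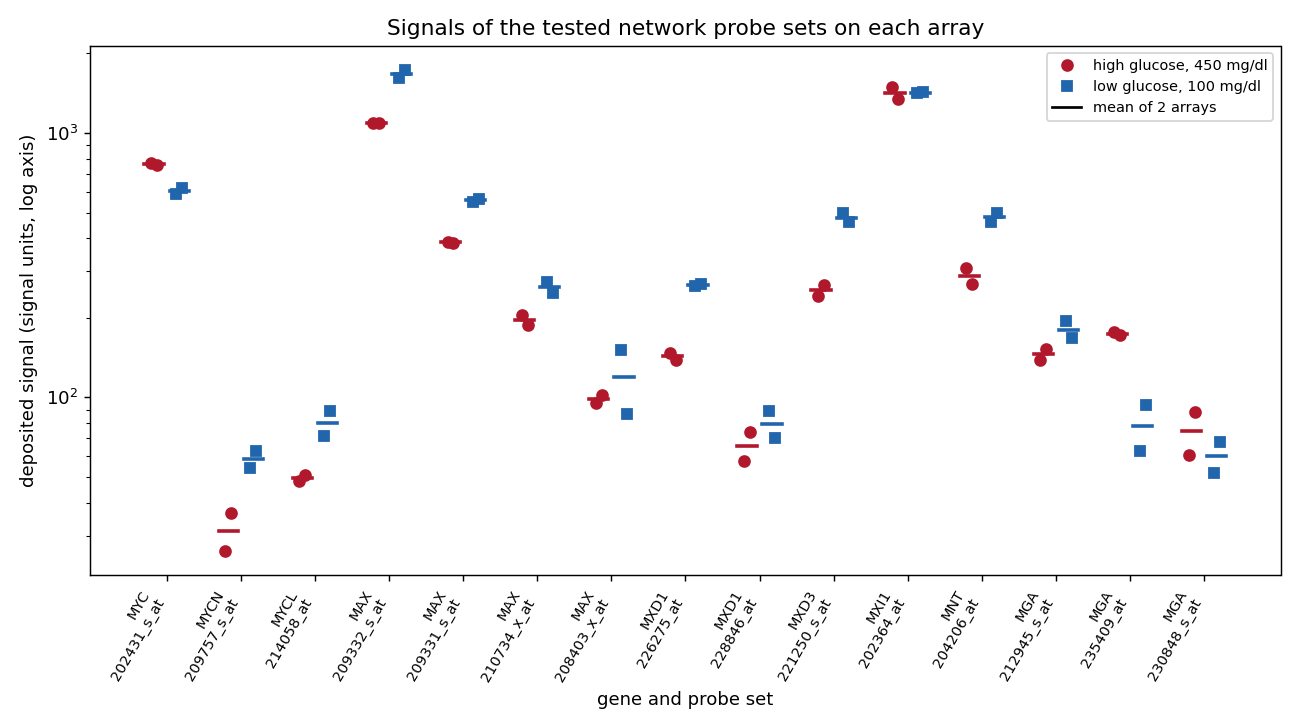
Deposited signal (log axis, signal units) of the 15 tested network probe sets on each array, with high glucose arrays as circles at the left of each pair, low glucose arrays as squares at the right, and bars for the mean of 2 arrays. Both high glucose arrays lie above the low glucose arrays for MYC and for 1 MGA probe set, and below them for 9 probe sets.

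MYC, the family member that drives growth programmes in most dividing cells, had 768.1 and 757 signal units in high glucose, against 589.5 and 619.8 in low glucose. Both high glucose arrays were above both low glucose arrays. The mean was 762.6 ± 7.84 in high glucose and 604.7 ± 21.5 in low glucose (SD, n = 2 each), a 1.26-fold rise or 0.34 ± 0.06 log2 units (SE, adjusted p = 0.0044, limma). The rise passed the test in every alternative in which the probe set was tested, with values from 0.30 to 0.51. MYC has 1 single-gene probe set, 202431_s_at, whose suffix marks probes that match more than 1 transcript, so no other probe set could be set beside it.

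MYCN, the family member best known from neural progenitors and neuroblastoma, was dim. Its only tested probe set had 26.19 and 36.4 in high glucose, against 54.28 and 62.47 in low glucose, with no overlap between the groups. It was called lower in high glucose, by 0.92 ± 0.30 log2 units (adjusted p = 0.036, limma). The high glucose mean of 31.3 was under the filter signal, so the probe set was tested because of its low glucose level, and the difference ranged from -1.15 to -0.68 over the alternatives. The other 9 MYCN probe sets were all below the filter, with means over 2 arrays between 1.38 and 27.75 in high glucose and between 1.674 and 26.84 in low glucose. Among them 242026_at, the brightest by mean log2 signal, had 26.72 and 28.78 in high glucose, against 24.02 and 21.59 in low glucose. It lay higher in high glucose without overlap, as did 234376_at, while 234298_at, 211377_x_at, 234169_at and 234815_at lay lower without overlap. The call was lost without high glucose replicate 1 (adjusted p = 0.17), low glucose replicate 1 (adjusted p = 0.060) or low glucose replicate 2 (adjusted p = 0.13).

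MYCL, first found in lung cancer, had 48.33 and 50.89 in high glucose, against 71.45 and 88.79 in low glucose. The groups did not overlap, and the probe set fell 1.61-fold, by 0.68 ± 0.23 log2 units (adjusted p = 0.042, limma). Its other probe set was below the filter, at 21.29 and 37.86 in high glucose, against 26.87 and 29.82 in low glucose, and overlapped. The call was lost without high glucose replicate 1 (adjusted p = 0.13), high glucose replicate 2 (adjusted p = 0.098) or low glucose replicate 2 (adjusted p = 0.18), and with a replicate block (adjusted p = 0.051). For MYCN and MYCL the calls were also lost after quantile normalization, median centring and cyclic loess and with no filter.

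MAX, the dimerisation partner shared by the other members, was lower in high glucose in its 3 brightest probe sets. The brightest had 1095 and 1092 signal units in high glucose, against 1617 and 1731 in low glucose, and the groups were well apart. It fell 1.53-fold, by 0.61 ± 0.06 log2 units (adjusted p = 2.2e-04, limma). The next probe set had 388.5 and 384 in high glucose, against 548.9 and 562.4 in low glucose, a fall of 1.44-fold (adjusted p = 8.1e-04). The 210734_x_at probe set, whose suffix marks probes that may bind other transcripts, had 205.7 and 188.1 in high glucose, against 274.3 and 249 in low glucose, and fell 1.33-fold (adjusted p = 0.019).

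The remaining tested MAX probe set, 208403_x_at, had 95.3 and 102.1 in high glucose, against 151.2 and 86.74 in low glucose. It overlapped between groups and did not pass, at -0.22 ± 0.27 log2 units (95% interval -0.84 to 0.41). The low glucose arrays were far apart for this probe set, and the result depended on them: without low glucose replicate 2 the difference was -0.62 and passed (adjusted p = 0.034), and without low glucose replicate 1 it was 0.19, of the opposite sign, and did not pass (adjusted p = 0.53, limma). A further MAX probe set, below the filter, had 40.52 and 33.1 in high glucose, against 32.03 and 13.65 in low glucose. For 210734_x_at the call was lost after median centring (adjusted p = 0.12) and without high glucose replicate 2 (adjusted p = 0.091) or low glucose replicate 1 (adjusted p = 0.074), while the brightest pair of probe sets passed in every alternative in which they were tested.

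MXD1, a MAX partner induced when cells differentiate and an antagonist of MYC, had 147.3 and 138.4 signal units in high glucose, against 264.4 and 268.2 in low glucose. The groups were clearly separate, and the fall was 1.86-fold (0.90 ± 0.11 log2 units, adjusted p = 5.8e-04, limma). A dimmer tested probe set had 57.62 and 73.87 in high glucose, against 88.87 and 70.04 in low glucose. It overlapped and did not pass, at -0.27 ± 0.24 log2 units. The remaining MXD1 probe set, below the filter, read 2.458 and 17.76 at high glucose, against 8.616 and 12.46 at low glucose.

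MXD3, the MXD protein known to be made during S phase, was lower in high glucose. It had 241 and 266.6 in high glucose, against 496.3 and 460.6 in low glucose, with no overlap. The mean was 253.8 ± 18.1 in high glucose and 478.4 ± 25.2 in low glucose (SD, n = 2 each), a fall of 1.89-fold or 0.92 ± 0.09 log2 units (adjusted p = 2.2e-04, limma). It rests on 1 probe set, as does MXI1.

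MXI1, a further MYC antagonist of the MXD family, differed from MXD1 and MXD3 in its values. It had 1495 and 1342 in high glucose, against 1411 and 1423 in low glucose, and the low glucose arrays lay between the high glucose ones. The difference was 0.00 ± 0.07 log2 units with a 95% interval of -0.16 to 0.16 (adjusted p = 1, limma). After median centring it was 0.17 and still did not pass (adjusted p = 0.14).

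MNT, a MAX partner present in both resting and dividing cells that competes with MYC, had 308.7 and 269.3 in high glucose, against 460.6 and 497.6 in low glucose. Both high glucose arrays were below both low glucose arrays. The fall was 1.66-fold, or 0.73 ± 0.10 log2 units (adjusted p = 7.7e-04, limma). A second MNT probe set was below the filter and overlapped, at 16.9 and 26.69 in high glucose, against 27.97 and 26.28 in low glucose. The calls of MNT, of MXD3 and of the brightest MXD1 probe set were kept in every alternative in which they were tested.

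MGA, a very large protein with a T-box and a helix-loop-helix domain, gave opposite values by probe set. The brightest had 138.8 and 152.6 in high glucose, against 193.7 and 167.5 in low glucose, with the high glucose arrays lower, but at -0.31 ± 0.14 log2 units it did not pass (adjusted p = 0.10, limma). The 235409_at probe set had 176.7 and 172 in high glucose, against 62.92 and 93.28 in low glucose. It rose 2.28-fold, by 1.19 ± 0.21 log2 units (adjusted p = 0.0031), and its 95% interval of 0.69 to 1.69 did not meet that of the brightest, -0.63 to 0.02. The third tested probe set stood at 0.30 ± 0.27 and did not pass, and the last was below the filter. MGA therefore has no single direction here.

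**Figure D2:**
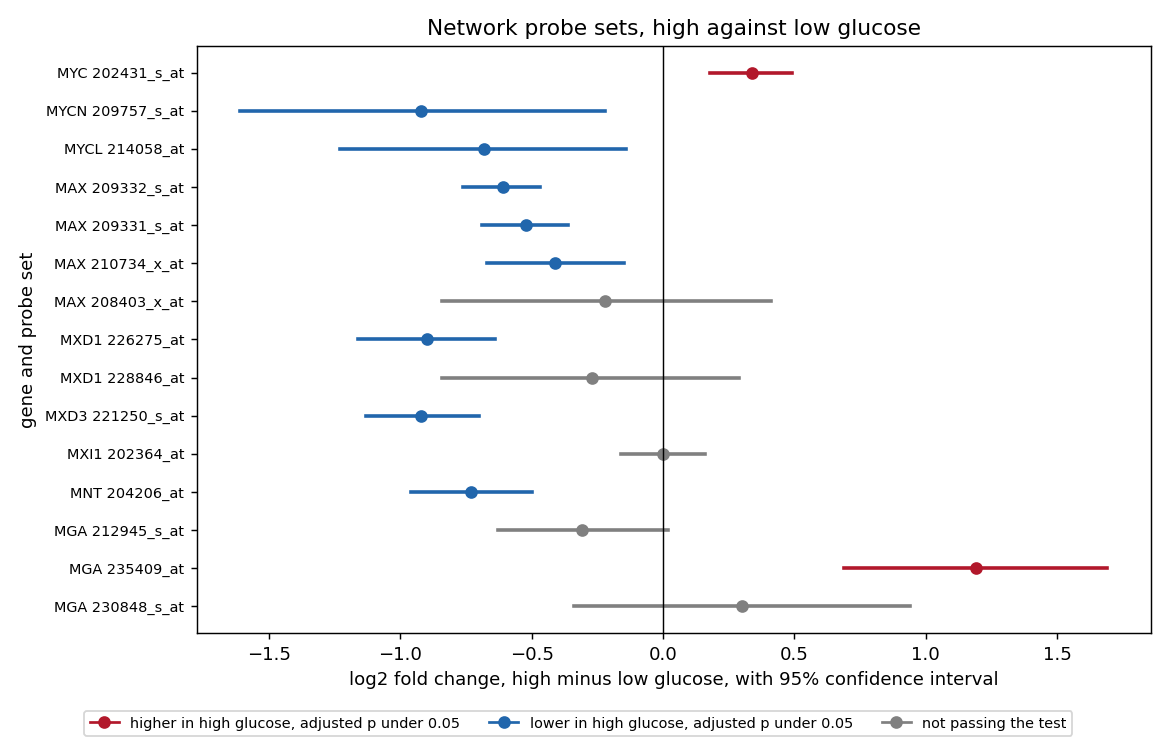
Log2 fold change, high minus low glucose, of the 15 tested network probe sets (points) with the 95% confidence interval of the limma fit (lines), coloured by call. MYC stands at 0.34, MXI1 at 0.00, and the brightest MAX, MXD1, MXD3 and MNT probe sets between -0.92 and -0.61, while the MGA probe sets lie on both sides of 0.

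Taking the brightest tested probe set of each gene, 1 of the 9 genes was called higher in high glucose (MYC), 6 were called lower (MYCN, MYCL, MAX, MXD1, MXD3 and MNT) and 2 did not pass (MXI1 and MGA). MYCN and MYCL lost the call in 7 of 13 and 8 of 14 alternatives. Over all 12242 genes treated in this way, 56.4% were called, 23.8% higher and 32.6% lower. The median log2 fold change was -0.68 over the 9 genes and -0.10 over all genes. Over the 8 genes whose means reached the filter signal in both conditions, which leaves out MYCN, 1 was higher, 5 were lower and the median was -0.64.

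Of the genes whose arrays followed MYC most closely, by the Euclidean distance of gene-centred log2 signals over the 4 arrays and among 12242 genes, the nearest were NARF (distance 0.0114), ZNF330 (0.0155) and FCSK (0.0166). NARF had 851.2 and 842.3 in high glucose, against 656.9 and 683.7 in low glucose, while FCSK did not pass the test (adjusted p = 0.13, limma). For MXD3 the nearest were CLN3 (0.00842), PMEL (0.029) and LRRC73 (0.0339). CLN3, a lysosomal membrane protein gene, had 359.9 and 396.8 in high glucose, against 737 and 689.3 in low glucose. The high glucose mean was 31.02 for LRRC73, under the filter signal, and 35.16 for PMEL, just above it. With 4 arrays, genes with a similar difference between the conditions lie close by this distance, and shared regulation was not tested.

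In the neighbouring MLX arm 1 of 3 genes was called higher and 1 lower, beside 23.8% higher and 32.6% lower over all genes. MLX had 814.5 and 750.8 signal units in high glucose, against 561.2 and 692 in low glucose, and its brightest probe set rose 1.25-fold (adjusted p = 0.035, limma). Its other 4 tested probe sets were not called, and the call of MLX was lost without high glucose replicate 1 and without low glucose replicate 1. MLXIP, the MondoA gene, stood at 0.01 ± 0.07 log2 units, with 561.9 and 557.8 in high glucose, against 541.4 and 571.4 in low glucose, which overlapped. MLXIPL, the ChREBP gene, had 40.34 and 24.73 in high glucose, against 106.4 and 82.4 in low glucose, and was called lower (adjusted p = 0.0050, limma). Its high glucose mean of 32.54 was under the filter signal, so it was tested because of its low glucose level and no fold is given. With the stricter filter of 63.6 signal units it was not tested.

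Genes of the SIN3 corepressor, the complex that MXD proteins recruit, had 3 of 15 measured genes higher in high glucose, 5 lower and 7 not passing (median -0.13), near the shares of 23.8% higher and 32.6% lower over all genes. SAP30, a SIN3-associated subunit, rose 1.58-fold in its brightest probe set, the only 1 of its 3 tested that was called. The deacetylase HDAC1 rose 1.29-fold, whereas the histone chaperones RBBP4 and RBBP7 fell 1.31-fold and 1.29-fold. For RBBP4 the 6 tested probe sets ranged from -1.13 to 0.21 log2 units, 3 of them called lower. BRMS1 stood at -0.01. The number lower was 3 without either high glucose replicate, and 5 were higher without low glucose replicate 2. In the Polycomb complex that holds MGA, 4 of 12 genes were higher and 5 lower (median -0.07), beside 23.8% and 32.6% of all genes. E2F6, its E2F subunit, fell 1.53-fold, RING1, a ubiquitin ligase, 1.63-fold and RYBP, which binds RING1, 1.49-fold. TFDP2, the partner of E2F factors, rose 1.98-fold in its brightest probe set, but 2 of its 4 tested probe sets were called lower. HDAC2, on both lists, stood at -0.03 in its brightest probe set, while its other tested probe set was called higher, at 1.26. Without low glucose replicate 1 the number lower was 2.

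Of 19 cofactors of MYC, most of them coactivators, 7 were higher, 7 lower and 5 did not pass (median -0.16), beside 23.8% higher and 32.6% lower over all genes. After median centring 7 were higher and 3 lower. RUVBL1 and RUVBL2, a pair of AAA ATPases of chromatin complexes, rose 1.53-fold and 1.41-fold. ZBTB17 (MIZ1), the member of the list through which MYC represses genes, fell to 172.2 and 174.1 in high glucose, against 306.7 and 307 in low glucose (1.77-fold, adjusted p = 4.8e-04, limma). HCFC1, a MYC-binding host cell factor, fell 1.82-fold in its brightest probe set, while its other probe set stood at 1.00 and did not pass. EP400 stood at -0.03 in its brightest probe set, and its other 2 tested probe sets were called higher. Without high glucose replicate 2 the number lower was 4.

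Genes that control MYC protein turnover had 4 of 18 higher, 4 lower and 10 not passing (median 0.12), beside 23.8% and 32.6% of all genes, and 9 higher and 3 lower after median centring. SKP2, a ubiquitin ligase subunit that acts on MYC, had 4617 and 4742 in high glucose, against 2631 and 2596 in low glucose, and rose in 3 of 3 probe sets, the brightest 1.79-fold (adjusted p = 5.3e-05, limma). AURKA, a mitotic kinase that stabilises MYCN, rose 1.80-fold, MAPK3, a kinase that phosphorylates MYC, fell 1.5-fold, and GSK3A stood at 0.06. GSK3B, which marks MYC for degradation, fell 1.33-fold in its brightest probe set, and of its 4 tested probe sets 2 were called lower and 1 higher. Among regulators of the MYC gene and mRNA, 4 of 11 were higher and 4 lower (median -0.05), beside the same shares of all genes. CTNNB1 (beta-catenin) rose 1.72-fold, and the mRNA-binding protein gene IGF2BP1 rose 1.28-fold with 3 of 3 probe sets called higher. The zinc finger factor MAZ rose 1.24-fold in its brightest probe set, while its other tested probe set stood at -0.21 and was not called. ELAVL1, an mRNA-stabilising protein, rose 1.19-fold in its brightest probe set, with 2 of 4 called higher. HNRNPD stood at -0.05, though 4 of its 6 tested probe sets were called higher. The number lower was 1 without either low glucose replicate, and after median centring it was 0, as it was for the SIN3 list.

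**Figure D3:**
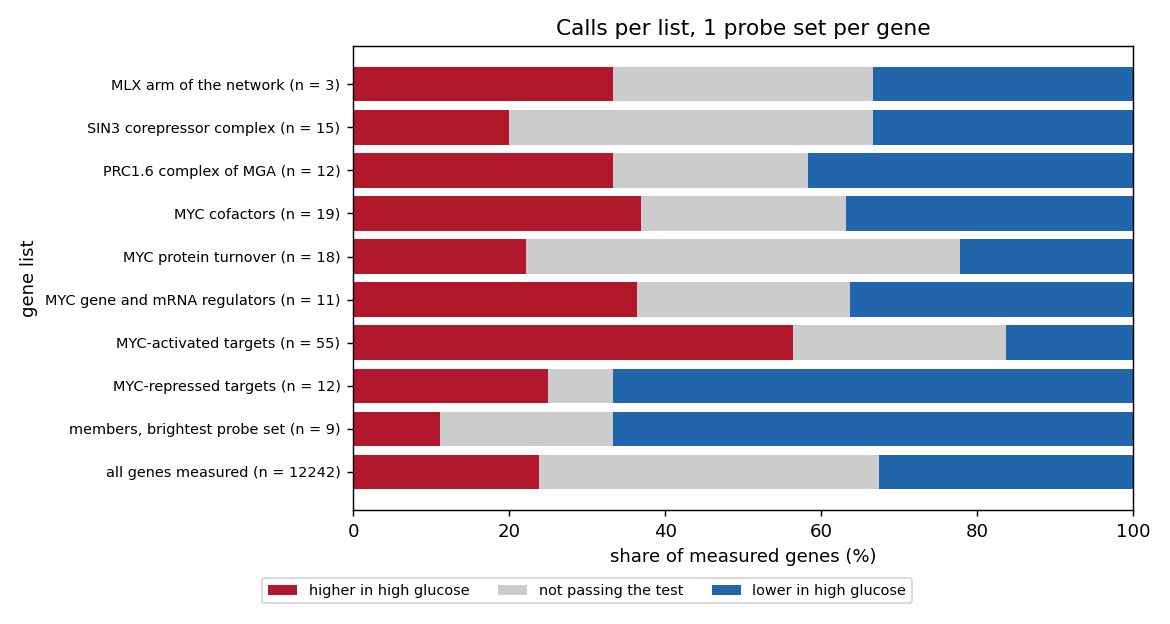
Share of measured genes (%) called higher in high glucose, not passing, and called lower in high glucose, for each gene list, with 1 probe set per gene and n the number of genes measured. MYC-activated targets have 31 of 55 called higher and MYC-repressed targets 8 of 12 called lower, against 23.8% and 32.6% of all genes.

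Of 55 measured genes that MYC is known to activate, 31 were higher in high glucose, 9 were lower and 15 did not pass, and the median was 0.31 log2 units, beside 23.8% higher and 32.6% lower over all genes. HSPE1, a mitochondrial co-chaperonin, had 3932 and 4130 signal units in high glucose, against 1341 and 1261 in low glucose, a 3.10-fold rise (adjusted p = 5.1e-06, limma). NDUFAF4, a respiratory complex assembly factor, had 1592 and 1593 in high glucose, against 735 and 744.3 in low glucose, and rose 2.15-fold in its brightest probe set, while its other tested probe set was called lower, at -0.35. PA2G4, a regulator of ribosome assembly, had 4544 and 4774 in high glucose, against 2239 and 2183 in low glucose, and rose 2.11-fold. In each of these the arrays of the groups were far apart. The poly-A spikes differed in the same direction by 3.84-fold, more than any of these rises.

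SHMT2, the mitochondrial serine hydroxymethyltransferase, went the other way, at 2773 and 3132 in high glucose, against 7135 and 7522 in low glucose. It fell 2.49-fold (adjusted p = 2.8e-05, limma), and 3 of its 3 tested probe sets were called lower. PPRC1, a coactivator of mitochondrial biogenesis, stood at 0.01. Without each array in turn, between 28 and 30 genes of the list were higher and between 7 and 9 lower, and after median centring 4 were lower.

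Within the activated list, genes were also grouped by function after their values had been seen. Their counts are read against 31 of 55 higher and 9 lower in the whole list, and 23.8% and 32.6% over all genes. Of 20 nucleolar and ribosome assembly genes 13 were higher and 2 lower (median 0.46). NOP16 rose 2.39-fold, NIP7 2.09-fold and MRTO4 1.98-fold, while FBL, the nucleolar methyltransferase fibrillarin, fell 1.31-fold and NCL, nucleolin, stood at 0.06. Both polyamine synthesis genes rose, ODC1, the rate-limiting enzyme, 1.63-fold and SRM 2.04-fold. Of 6 genes of nucleotide, folate and one-carbon metabolism 3 were higher and 3 lower. In cell cycle and replication 2 of 5 were higher and 1 lower, with MCM5 1.64-fold higher and CDK4, a MYC target that drives entry into S phase, 1.5-fold lower. Of 8 mitochondrial genes 4 were higher and 0 lower. That group leaves out SHMT2, a mitochondrial enzyme gene that was lower, which was placed with one-carbon metabolism. Of 7 genes of translation, methylation and transport 6 were higher and 0 lower, and of 2 glycolysis genes 1 was higher. The remaining 5 genes (TFRC, BCAT1, APEX1, TMEM97 and UNG) had 0 higher and 3 lower (median -0.18).

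Of 12 measured genes that MYC is known to repress, 8 were lower in high glucose, 3 were higher and 1 did not pass (median -0.63). Over all genes 32.6% were lower and 23.8% higher, with a median of -0.1. CDKN1A, the cyclin-dependent kinase inhibitor p21, had 628.2 and 659.8 signal units in high glucose, against 2548 and 2437 in low glucose, a fall of 3.87-fold (adjusted p = 2.3e-06, limma). GADD45A, a growth arrest and DNA damage gene, fell 2.17-fold, NDRG1, a stress-induced gene of growth arrest, 1.98-fold and GAS1, a growth arrest gene of the cell surface, 1.98-fold in its brightest probe set. NDRG2 stood at -0.10. The 3 that rose were TXNIP (2.24-fold), CLU (2.00-fold) and CDKN2B (1.56-fold), chosen for naming after their values were seen. Without each array in turn, 7 or 8 were lower and 3 higher.

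The canonical E-box was in 27 of 63 promoter windows (42.9%) of the 46 activated targets that had one in RefSeq, against 7.26% of all windows, and base composition was not matched. The motif was in 16 of 33 windows (48.5%) of targets called higher, 4 of 8 windows of targets called lower and 7 of 22 (31.8%) of those not passing. For repressed targets it was in 1 of 19 windows. Of the activated genes named first above, SHMT2 had no window, and the windows of PA2G4, NDUFAF4 and PPRC1 held no canonical E-box. HSPE1 had 1 canonical E-box, starting 22 bases before the gene start. It is shown with the motif in capitals, at chr2:197500345-197500374 on the plus strand of GRCh38.p14.
HSPE1: gggtgattttttCACGTGtcgccagggccg

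**Figure D4:**
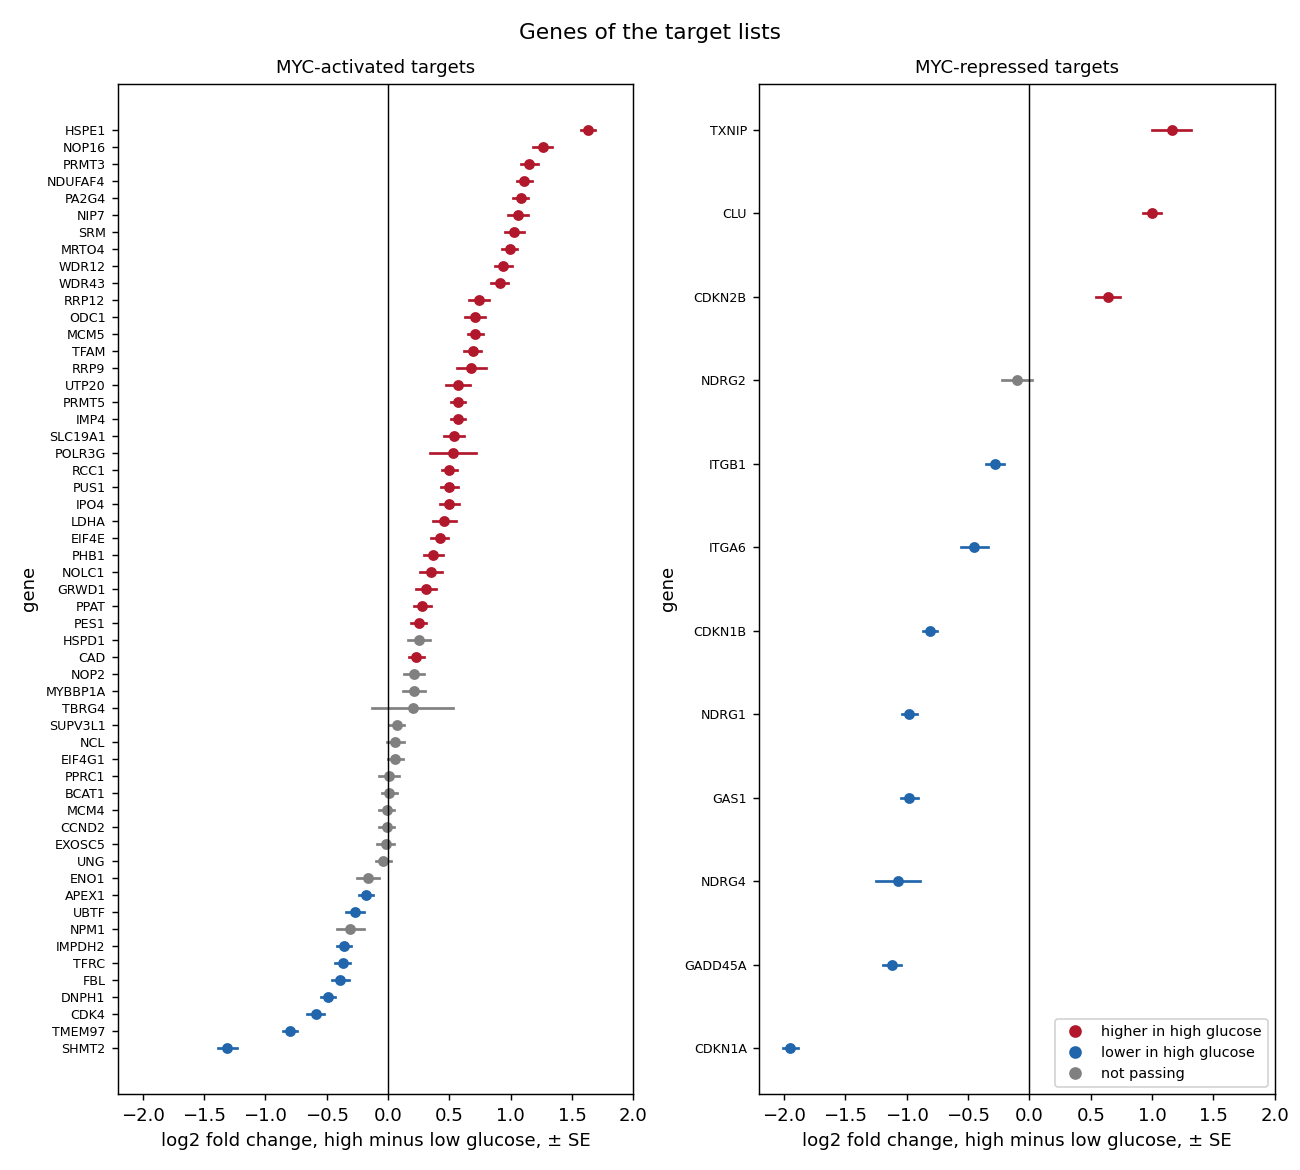
Log2 fold change, high minus low glucose, ± SE of the limma fit, for each measured gene of the activated (left) and repressed (right) target lists, coloured by call. HSPE1 lies highest among activated targets and SHMT2 lowest, and CDKN1A lowest among repressed targets at -1.95.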

How the data were processed

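Total RNA of 4 HEK293 samples was labelled with biotin and hybridised to 1-colour Affymetrix arrays, per the labels. The authors deposited 1 intensity per probe set and array on a linear scale. The submitters' processing notes name GCOS, with its version and any further step not given in the sources used here. On the values, the 2% trimmed mean was equal on every array, so a change shared by most transcripts is scaled away.

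Probe sets were named through GEO's platform annotation, with symbols updated by gene identifier through RefSeq of GRCh38.p14 (41043 of 41097 single-gene probe sets matched; 1801 name several genes and 11777 none). The 62 control probe sets were left out. Signals were log2-transformed, and the 27307 probe sets at or above the median mean signal of 32.9 were fitted with limma 3.58.1 (R 4.3.3, lmFit, then eBayes with its trend option) on the 4 arrays, with Benjamini-Hochberg adjustment over all of them. Lists use the brightest tested probe set of each gene. On data simulated for this comparison over 27307 probe sets with 200 changed, 17.9%, 51.3% and 86.4% of changes of 0.5, 1 and 2 log2 units were recovered, and 4.43% of calls were false on average, with variances drawn from limma's fitted prior. An earlier simulation with the moderated variance of each probe set recovered 43.5%, 77.4% and 98.7%, with 12.5% of calls false, above the 5% aimed at, and the prior was tried after that result. Both simulations changed far fewer probe sets than the 50.4% called in the data, so these shares need not hold for it. The number of arrays limits the precision.

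The members and lists were chosen with earlier results of these data known, so their counts are descriptions. Every tested member probe set was described, with 4 genes of smallest and 1 of largest p per list and the whole MLX arm. Member probe sets below the filter were given by their values, within a range or only as below the filter. NOP16, NIP7, MRTO4, FBL, NCL, ODC1, SRM, MCM5, CDK4, TFRC, BCAT1, APEX1, TMEM97 and UNG were named after their values were seen. List genes without a tested single-gene probe set were not analysed here. Alternatives covered normalization, filter, pseudocount (2.91), prior, probe set choice, a replicate block and leaving out each array.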

Additional observations from a re-analysis of the deposited data

How the results depend on the processing

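Over 208 comparisons of a tested network probe set with an alternative, 189 kept their side of the threshold, 18 lost the call and 1 gained it. The sign turned in 4 of the 189, all of them uncalled: MXI1 in 3 and MAX 208403_x_at without low glucose replicate 1. All losses were in MYCN, MYCL and the MAX probe set 210734_x_at, and the cause was not tested. Median centring left 5 network probe sets lower, 4 MYC-activated targets lower, 3 MYC cofactors and 3 genes of the MGA complex lower, 0 SIN3 genes and 0 regulators of MYC lower, and 9 turnover genes higher. Without _x_at and _s_at probe sets fewer were tested: 8032 calls in all, 1 network probe set higher and 3 lower, with MYC not tested, and lower genes numbered 3 for activated targets, repressed targets, cofactors and SIN3, 2 for turnover and MYC regulators and 0 for the MLX arm, while 2 cofactors, 2 genes of the MGA complex and 0 of the MLX arm were higher. With 1 probe set per gene there were 7049 calls in all, and 1 network gene was higher. With no intensity trend, 3 cofactors, 2 turnover genes and 0 of the MLX arm were higher, and 3 cofactors, 3 SIN3 genes, 3 genes of the MGA complex and 0 regulators of MYC were lower. With no filter, 0 of the MLX arm were higher, 3 of the MGA complex and 2 regulators were lower. Quantile normalization left 0 of the MLX arm higher, and the stricter filter (63.6 signal units) 0 lower.

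Leaving out each array in turn gave 2 network probe sets higher throughout and 6 to 7 lower, and 11167 to 12381 calls in all, against 13759 with all 4 arrays. Genes higher ranged from 0 to 1 for the MLX arm, 3 to 5 for SIN3, 3 to 4 for the MGA complex, 5 to 7 for cofactors, 4 to 4 for turnover, 3 to 4 for regulators, 28 to 30 for activated and 3 to 3 for repressed targets. Genes lower ranged from 1 to 1, 3 to 6, 2 to 5, 4 to 6, 3 to 5, 1 to 3, 7 to 9 and 7 to 8 in the same order of lists. The groups share replicate numbers, and the deviations of same-numbered arrays correlated at 0.0077 across probe sets. That shows no shared deviation, but it cannot tell whether same-numbered arrays were grown or handled together. A replicate block gave 13842 calls and 7 network probe sets lower, MYCL being lost at adjusted p = 0.051 (limma).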
